A study of Mus musculus with 12 samples.

Results

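Protein phosphatase 2A (PP2A) is a main Ser/Thr phosphatase of the brain, and 10 of its subunit genes were followed here among 23361 gene names. Ppp2ca and Ppp2cb encode the catalytic subunit, Ppp2r1a a scaffold subunit, Ppp2r2a, Ppp2r2b, Ppp2r2c and Ppp2r2d the B55 family of regulatory subunits, and Ppp2r5a, Ppp2r5c and Ppp2r5e members of the B56 family. They were taken by name from the deposited table of aged enriched against aged standard-housed mice, which holds every library. Where a name had several transcripts the row with the most reads was used, and each of the 10 passed the filter on low counts. Hippocampal messenger RNA of wild type male C57Bl/6J mice was measured by SAGE-Seq in 12 libraries, each from the hippocampus of 1 animal. There were 3 libraries in each of 4 groups, made up of aged or young mice kept in environmental enrichment (EE) or in standard housing (SH). By the sample labels aged mice were 14 to 17 months old and young mice 5 to 6 months old. The paper gives ages for the start of the experiments, and its range for aged mice begins later than that of the labels. Tissue was taken weeks after the last maze test, when the mice were older than at that start. All animals came from the cohort trained in a water maze before and after housing, so each group shared that training.

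PP2A works as a complex of 3 parts. A scaffold subunit, shaped like a curved arm, holds a catalytic subunit and a regulatory subunit, and the regulatory subunit steers the enzyme to its substrates and places. In neurons PP2A removes phosphate from the microtubule protein tau and from kinases of synaptic signalling, and it is known for a part in long-term depression. The catalytic proteins made from Ppp2ca and Ppp2cb are nearly identical, whereas the regulatory families differ widely in sequence and in the tissues that use them.

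SAGE-Seq reads a short tag that starts at the NlaIII site (CATG) nearest the poly(A) tail. By design a count therefore does not grow with transcript length, and levels of different genes can be set side by side. The tags below are predictions from the genome (NCBI37/mm9) and GENCODE gene models, since the tables give reads per transcript and not per tag. They are printed for Ppp2cb, Ppp2r1a and Ppp2r2c, whose highest and lowest libraries lay farthest apart. Tags of Ppp2ca, the counterpart of Ppp2cb, and of Ppp2r2d, the steadiest, are printed too. They show the tag predicted for each gene and not the reads counted. Capitals mark the NlaIII site, and each tag lies in a 3′ UTR. No other protein-coding gene held the same 27 bases anywhere in its GENCODE transcripts, by exact match. Matches with 1 mismatch, which the authors' alignment allowed, were not searched.
Ppp2cb: CATGacagtgcttgcatcctatttggt
Ppp2r1a: CATGttttttgtgtgtcaattgtgcca
Ppp2r2c: CATGgccctagtttccagacttctgtt
Ppp2r2d: CATGgtgcgtgggtgcccgagcaggct
Ppp2ca: CATGactgtagatgaggatagcaaaca
The Ppp2cb tag lies at chr8:34730211-34730237, that of Ppp2r1a at chr17:21102789-21102815, that of Ppp2r2c at chr5:37345774-37345800, that of Ppp2r2d at chr7:146074621-146074647 and that of Ppp2ca at chr11:51935828-51935854, each on the plus strand. The GENCODE model of Ppp2ca runs 5029 bases past the end of the row, so transcripts with that longer end would carry another tag. For Ppp2r2a, 2 rows share a 3′ end and a predicted tag, yet the second held 1.67% to 8.17% of the reads of the first. The predicted tag therefore does not account for the reads of each row.

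Libraries held 6928733 to 16035101 reads, and a member had between 92 and 6732 reads in a library. Values are given as RPM, reads scaled to a common library size with TMM, which equalises the bulk of the genes. Young EE library 1 stood apart, since 1280 of 13138 genes tested (9.74%) lay more than 2-fold from both other young EE libraries in the same direction, against 255 to 954 in the other libraries. Its mean correlation across genes was 0.943 with its own group and 0.955 with the young SH libraries, though 7 of 12 libraries correlated more with some other group than with their own. Young SH library 2 came next with 954 genes. Markers of dentate granule cells, a hippocampal cell type, summed to 46.7 to 172 RPM, those of neurons to 7564 to 10372 RPM, of astrocytes to 3532 to 4182 RPM and of oligodendrocytes to 1448 to 7232 RPM. Aged EE library 3 stood out with 1318 RPM of choroid plexus markers, against 81.7 to 186 RPM in the others, and 36.3 RPM of pituitary markers, against 3.44 to 15.2 RPM. A score of 5 dorsal minus 8 ventral hippocampal markers was 1.99 to 2.36 in libraries 1 and 3 of aged EE and of young SH, and -1.27 to -0.47 in the other 8. Since these are bulk samples, fewer cells of a type and less RNA per cell cannot be told apart.

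By the rows counted, Ppp2cb was the most abundant of the 10 genes, with a mean of 497 RPM (SD 153, n = 12). Ppp2r2c and Ppp2r1a followed at 298 RPM each (SD 98.7 and 111), and Ppp2r2c was the higher in only 5 of 12 libraries, so their order is not settled. Ppp2r2b at 188 RPM (SD 50.7) and Ppp2ca at 160 RPM (SD 26.6) were also not separated, with Ppp2r2b above Ppp2ca in 6 of 12 libraries. The same holds for Ppp2r2d at 105 RPM (SD 8.72) and Ppp2r2a at 100.4 RPM (SD 21.9), with Ppp2r2d above in 7 of 12. Below them, Ppp2r5c at 66.1 RPM (SD 10.6) was above Ppp2r5a in 12 of 12 libraries, and Ppp2r5a at 27.1 RPM (SD 7.37) was above Ppp2r5e, at 18.7 RPM (SD 3.24), in 11 of 12. The Ppp2r5c row used is a transcript form with the farther 3′ end. A form with a nearer end had a further mean of 56.0 RPM (SD 8.45) that is not counted. The place of Ppp2r5c in this order therefore holds only for the row used. Summed over the 10 genes, the level ran from 1218 RPM in young EE library 1 to 2069 RPM in young EE library 2.

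**Figure D1:**
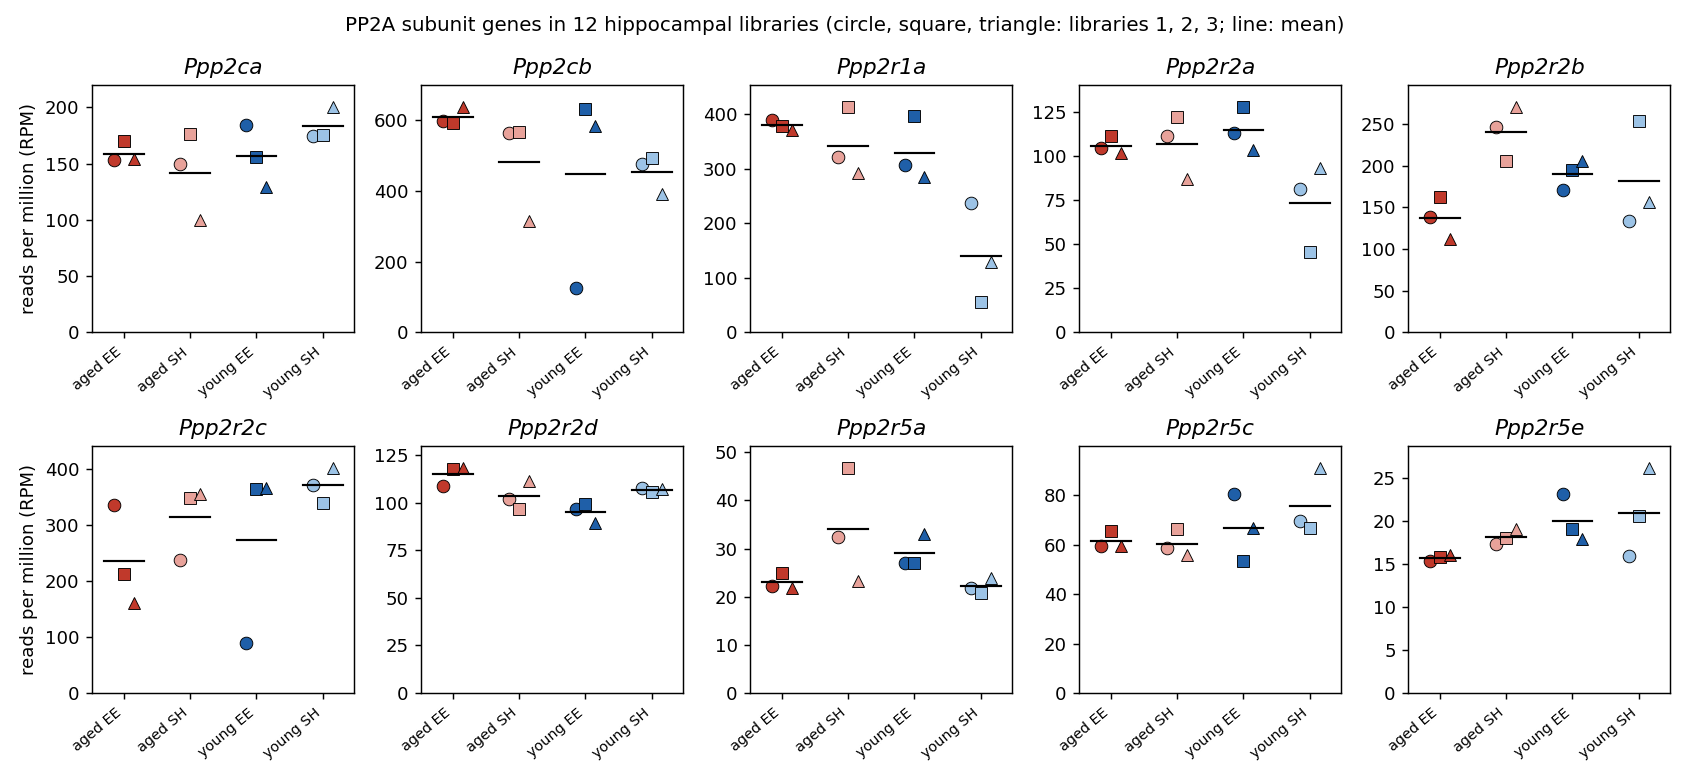
Scaled reads (RPM, vertical axes, linear from 0) of the 10 PP2A subunit genes by group, with circles, squares and triangles for libraries 1, 2 and 3 and a line at the group mean. Ppp2r1a was lowest in the 3 young SH libraries (55.8 to 238 RPM), Ppp2cb and Ppp2r2c were lowest in young EE library 1 (125 and 89.6 RPM), and Ppp2r2d varied least (89.2 to 118 RPM).

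Ppp2cb, which encodes the beta form of the catalytic subunit, had 598, 591 and 636 RPM in aged EE libraries 1 to 3. Its values were 563, 568 and 314 RPM in aged SH, 125, 631 and 583 RPM in young EE, and 475, 493 and 391 RPM in young SH. The aged EE libraries lay close together and above all aged SH libraries, while a single low library widened the spread in aged SH and in young EE. Ppp2ca, the alpha form, had 153, 170 and 154 RPM in aged EE and 149, 176 and 99.99 RPM in aged SH. In young mice it had 185, 156 and 129 RPM with EE and 174, 175 and 199.9 RPM with SH. The groups overlapped for Ppp2ca in each of the 4 pairs compared, and aged SH library 3, which was low for Ppp2cb, held its lowest value too.

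The balance between the counted rows of the catalytic genes differed among libraries. Any Ppp2ca transcripts with the longer 3′ end described above would carry another tag, so the shares are for the counted ends only. Ppp2ca made up 59.7% of their summed RPM in young EE library 1, 26.2% to 33.9% in the 3 young SH libraries and 18.1% to 24.2% in the other 8. By group the share was 20.7% ± 1.49 in aged EE, 22.9% ± 1.74 in aged SH, 32.5% ± 23.5 in young EE and 28.98% ± 4.24 in young SH (mean ± SD, n = 3). Without young EE library 1 the young EE mean was 19.0%. Between aged EE and aged SH, Ppp2cb differed by a log2 fold change of 0.39 (SE 0.49) and Ppp2ca by 0.20 (SE 0.20), neither past the threshold with limma (adjusted p = 0.842 and 0.791). Between young EE and young SH the log2 fold change of Ppp2cb was -0.33 (SE 0.49), and it was 0.43 (SE 0.24) without young EE library 1. Between aged EE and young EE it was 0.76 (SE 0.49), and -0.01 (SE 0.24) without that library.

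**Figure D2:**
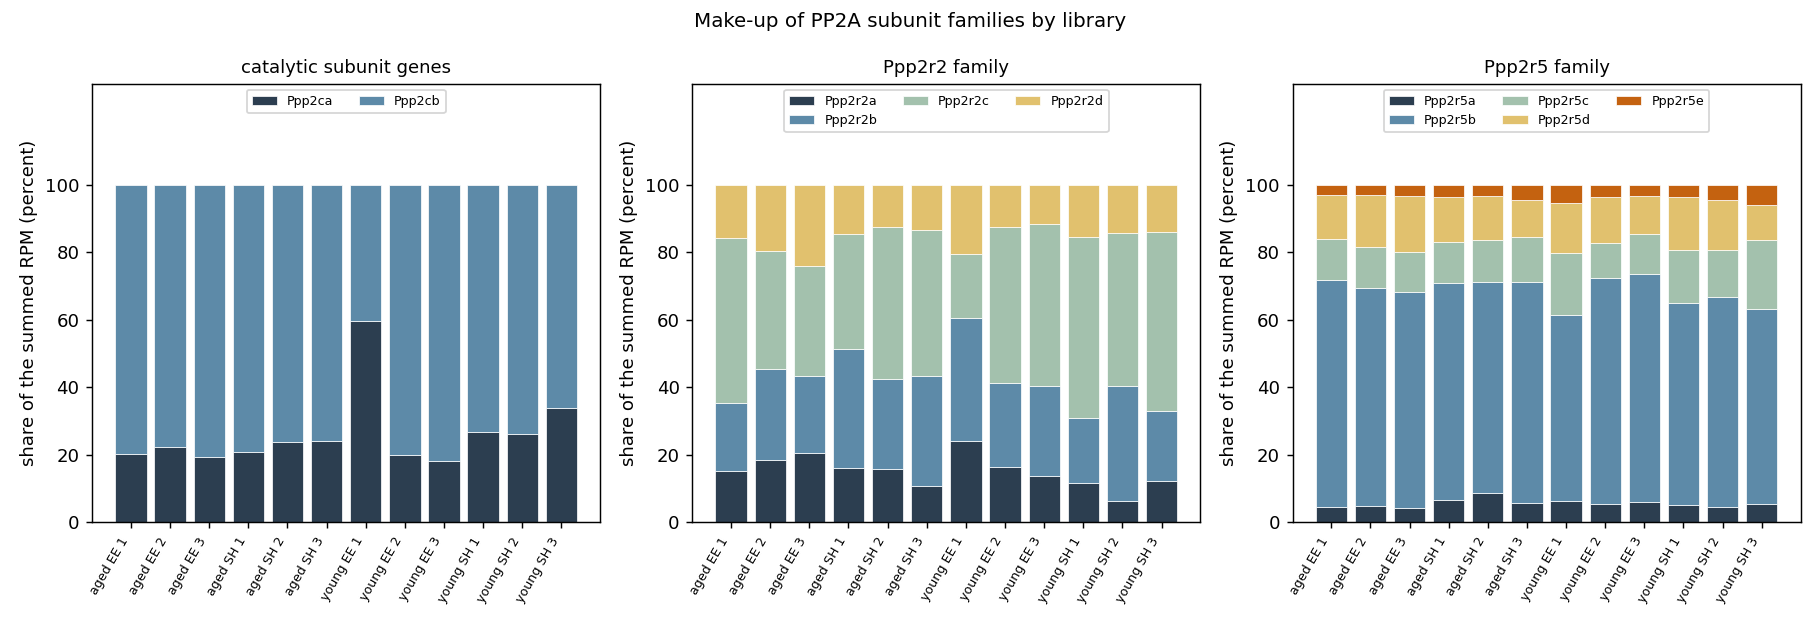
Share (percent, vertical axes) of each gene in the summed RPM of the catalytic genes, the Ppp2r2 (B55) family and the Ppp2r5 (B56) family, as stacked bars for each of the 12 libraries. Ppp2ca held 18.1% to 33.9% of the catalytic sum except in young EE library 1 (59.7%), where Ppp2r2c was also at its smallest share of its family (19.0%).

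Ppp2r1a, which encodes the alpha scaffold subunit on which most PP2A complexes are built, was lower in young SH than in every other library. It had 389, 378 and 372 RPM in aged EE and 322, 413 and 293 RPM in aged SH. In young mice it had 308, 396 and 285 RPM with EE, but 237.6, 55.8 and 128.3 RPM with SH. The 3 young SH libraries therefore lay below the other 9 and differed among themselves by more than 4-fold, with library 2 lowest. Aged SH exceeded young SH by a log2 fold change of 1.503 (SE 0.39), and Ppp2r1a was the only member of 10 past the threshold in that comparison, an adjusted p under 0.1 from limma (adjusted p = 0.0959). Of all genes tested, 2.9% passed there (1.18% higher and 1.72% lower in aged SH), and 3 members were at an unadjusted p under 0.05, against 19.4% of all genes. The comparison of young EE with young SH shares those young SH libraries, and there Ppp2r1a differed by 1.45 (SE 0.39) without passing (adjusted p = 0.389 with limma).

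The call on Ppp2r1a lay at the margin of the threshold. It was lost with edgeR's quasi-likelihood test (adjusted p = 0.127) and kept with its likelihood ratio test (0.0348) and DESeq2 (0.031), and the adjusted p was 0.642 over the 8 libraries the study used. The log2 fold change stayed above 0 throughout, from 0.95 without young SH library 2 to 2.13 with the position score in the fit, and leaving out 1 library lost the call for 8 of 12 libraries, with the largest adjusted p (0.301) without young SH library 3. Blood genes also differed between aged SH and young SH. The 5 red blood cell markers gave only 3 distinct sets of values, since Hba-a1 equalled Hba-a2 and Hbb-b1 equalled Hbb-b2 in every library. Counted once each they summed to 1633 to 3843 RPM in young SH and 1021 to 1436 RPM in aged SH. The sums were 789 to 1649 RPM in aged EE and 614 to 1508 RPM in young EE, so aged EE reached into the young SH range. Within young SH the sum was highest in library 3, while Ppp2r1a was lowest in library 2. The shared values of Hbb-b1 and Hbb-b2, named after they were seen, passed the threshold between aged SH and young SH (log2 -3.23, SE 0.84, adjusted p = 0.0959 with limma). The part of blood in the Ppp2r1a result was not tested. The summed catalytic RPM was 1.0 to 2.7 times that of the scaffold genes in 10 libraries, but 11.2 times in young SH library 2 and 4.3 times in young SH library 3.

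**Figure D3:**
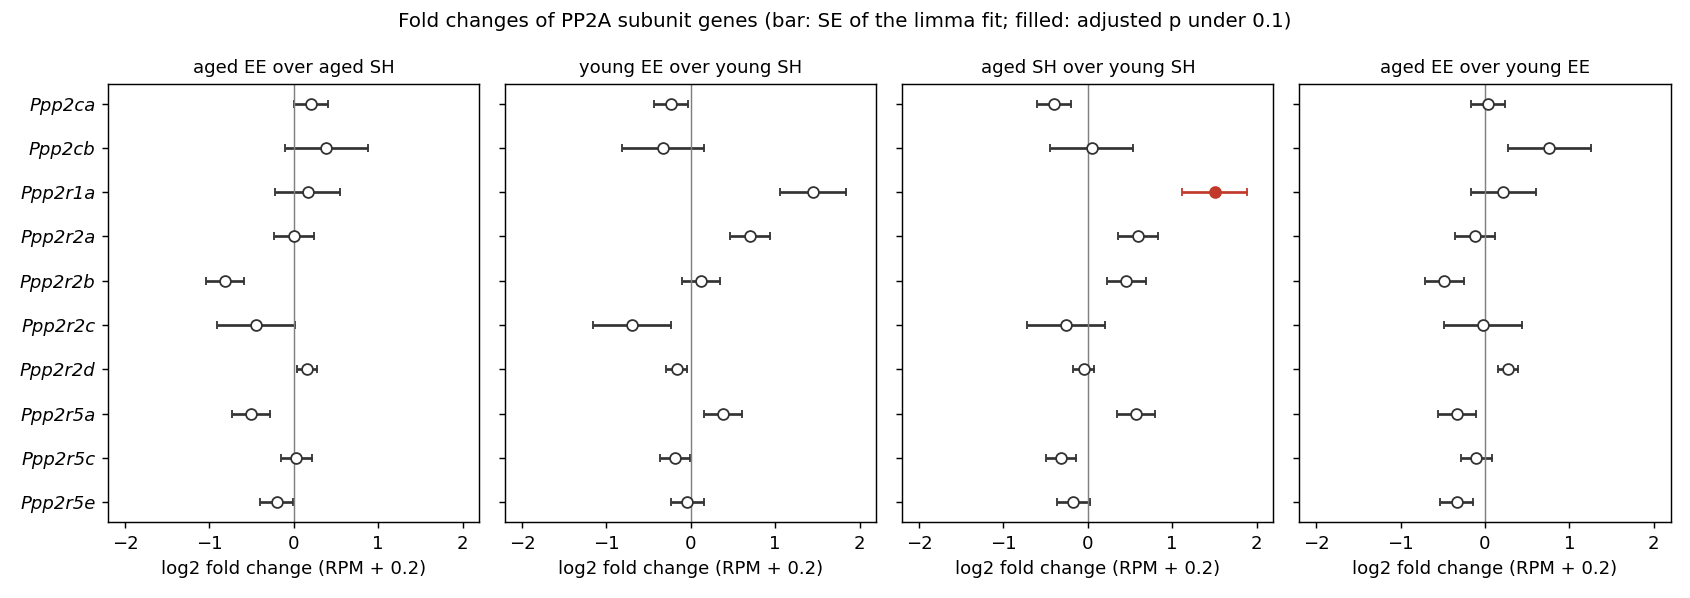
Log2 fold change of RPM + 0.2 (horizontal axes) of the 10 genes in 4 comparisons, with bars of 1 SE of the limma fit, and filled symbols where the adjusted p was under 0.1. Ppp2r1a in aged SH over young SH (1.503) was the only filled symbol, and Ppp2r2b (-0.81) was the farthest from 0 in aged EE over aged SH.

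Among the B55 genes, Ppp2r2c, which encodes the brain-enriched gamma subunit, had the highest mean and held 19.0% to 53.5% of the summed RPM of the family, with Ppp2r2b above it in aged SH library 1 and all 3 other B55 genes above it in young EE library 1. It had 336, 212 and 161 RPM in aged EE and 237, 348 and 354 RPM in aged SH. In young mice it had 89.6, 363 and 366 RPM with EE and 372, 338 and 401.2 RPM with SH. Values were high and even in young SH, spread widely in aged EE, and were lowest in young EE library 1. On the log2 scale it differed by -0.45 (SE 0.46) for aged EE over aged SH and -0.69 (SE 0.46) for young EE over young SH, the former -0.21 (SE 0.51) without aged EE library 3 and the latter -0.02 (SE 0.28) without young EE library 1. Between aged EE and young EE it was -0.02 (SE 0.46), and -0.71 (SE 0.28) without that library, and none of these passed.

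Ppp2r2b encodes the beta B55 subunit, which is found mainly in neurons, and whose gene in humans carries the repeat expansion of a spinocerebellar ataxia. It had 139, 162 and 112 RPM in aged EE and 247, 206 and 270.2 RPM in aged SH, so that the aged groups did not overlap. In young mice it had 171, 196 and 205 RPM with EE and 134, 253 and 157 RPM with SH, which overlapped. Aged EE over aged SH gave a log2 fold change of -0.81 (SE 0.23), the farthest from 0 of the 10 members, which did not pass the threshold (limma, adjusted p = 0.518). It was -0.67 (SE 0.25) without aged EE library 3, the library with high choroid plexus markers. Ppp2r2b also did not pass with the choroid plexus score as a covariate, and beyond that fit the part of choroid plexus was not tested. The housing effect in aged mice minus that in young mice was -0.94 (SE 0.32), also not past the threshold (adjusted p = 0.296), and it passed only without young SH library 2 (-1.21, adjusted p = 0.0639). Without that library the difference of aged SH over young SH passed as well (0.72, adjusted p = 0.0764, against 0.46 and 0.297 with it).

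The level of Ppp2r2b moved with the position score. It was 112 to 157 RPM in the 4 libraries with a dorsal minus ventral score above 0 and 162 to 270.2 RPM in the other 8, and it was the only member whose values did not overlap between these libraries. Of all genes tested, 2.15% were lower without overlap and 1.86% were higher. The same 4 libraries also had the highest sums of dentate granule cell markers, 133 to 172 RPM against 46.7 to 100.6 RPM in the other 8. Position and cell make-up therefore cannot be told apart here, and the part of either in the level of Ppp2r2b was not tested. With the score as a covariate, the log2 fold change of aged EE over aged SH was -0.37 (SE 0.19, adjusted p = 0.969 with limma) and the difference between ages in the housing effect was -0.07 (SE 0.31). Libraries with a score above 0 came only from aged EE and young SH. The score and the groups therefore cannot be told apart in this fit, and the part of position in the housing difference was not tested.

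Ppp2r2a and Ppp2r2d, the alpha and delta B55 genes, lay at similar levels but differed in spread. Ppp2r2a, whose protein is widely expressed and acts on tau, had 105, 112 and 102 RPM in aged EE, 111, 123 and 87.1 RPM in aged SH, 113, 127.8 and 104 RPM in young EE, and 81.7, 45.9 and 93.2 RPM in young SH. The young EE and young SH libraries did not overlap, and young SH library 2 was again the lowest. Young EE exceeded young SH by 0.70 on the log2 scale (SE 0.24) and aged SH exceeded young SH by 0.59 (SE 0.24), both short of the threshold with limma (adjusted p = 0.429 and 0.213). Without young SH library 2 these values were 0.40 (SE 0.18) and 0.27 (SE 0.18). Ppp2r2d, which takes part in the control of mitotic exit in dividing cells, had 109, 118 and 118 RPM in aged EE, 102, 96.6 and 111 RPM in aged SH, 96.7, 99.3 and 89.2 RPM in young EE, and 108, 105 and 107 RPM in young SH. Its highest value was 1.32 times its lowest, the narrowest range of the 10. Aged EE lay above young EE without overlap, with a log2 fold change of 0.27 (SE 0.12) that did not pass (adjusted p = 0.625 with limma).

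Ppp2r1a and Ppp2r2a varied together across libraries. Pearson's r of their log2 RPM was 0.90 and Spearman's rho 0.83 over 12 libraries, the highest r of 45 pairs of members, whose median r was -0.10. Without young SH libraries 2 and 3, the farthest from the median of Ppp2r1a, r was 0.77, and it was 0.81 after the group means were taken out. The libraries share their preparation and scaling, so these values are a description and carry no p. By contrast, r of Ppp2cb and Ppp2r2c was 0.57, but -0.51 without young EE library 1 and aged SH library 3, so that relation rested on those libraries. The lowest r was -0.67, between Ppp2r2d and Ppp2r5a. After the group means were taken out, r was -0.75 for that pair and 0.75 for Ppp2cb and Ppp2r2c. For Ppp2r1a and Ppp2r2b it was then -0.81, against -0.28 before.

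**Figure D4:**
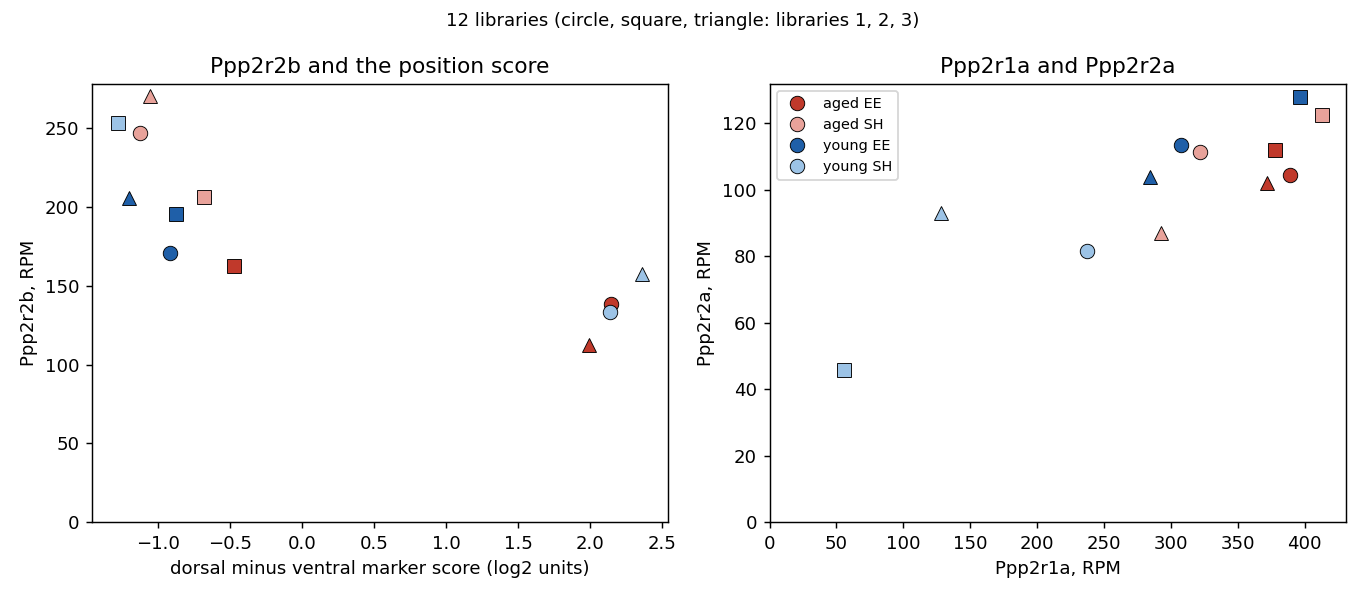
Left, Ppp2r2b (RPM) against the dorsal minus ventral marker score (log2 units), and right, Ppp2r2a against Ppp2r1a (both RPM), each point a library coloured by group. Ppp2r2b was 112 to 157 RPM in the 4 libraries with a score above 0, and the points at the lower left on the right are young SH libraries, with library 2 at 55.8 RPM of Ppp2r1a and 45.9 RPM of Ppp2r2a.

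In the rows used, the 3 B56 members were the least abundant of the 10, with Ppp2r5c counted by its farther-end form alone. Ppp2r5b, which is not among the 10 members and is named after its values were seen, held 55.3% to 67.7% of the summed RPM of the B56 family. That sum also leaves out the nearer-end form of Ppp2r5c. Ppp2r5a, the alpha B56 gene, had 22.3, 24.9 and 21.8 RPM in aged EE and 32.4, 46.7 and 23.3 RPM in aged SH. In young mice it had 27.0, 27.0 and 33.1 RPM with EE and 21.8, 20.7 and 23.9 RPM with SH. Young EE lay above young SH without overlap, whereas the aged groups overlapped at aged SH library 3. Its log2 fold change was -0.51 (SE 0.23) for aged EE over aged SH and 0.39 (SE 0.23) for young EE over young SH, with adjusted p = 0.551 and 0.603 from limma. The difference between these housing effects was -0.90 (SE 0.32) and did not pass (adjusted p = 0.307 with limma).

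Ppp2r5c, the gamma B56 gene, and Ppp2r5e, the epsilon gene, stayed within narrow ranges. Ppp2r5c had 53.4 to 90.9 RPM over all libraries, with its highest value in young SH library 3 and its lowest in young EE library 2. In its group means it had 61.5 ± 3.57 RPM in aged EE, 60.3 ± 5.36 in aged SH, 66.8 ± 13.4 in young EE and 75.7 ± 13.2 in young SH (SD, n = 3). Aged SH lay below young SH without overlap, by a gap of less than 1 RPM, and its log2 fold change of -0.32 (SE 0.18) did not pass (adjusted p = 0.356 with limma). Its transcripts have alternative 3′ ends, at chromosome 12 positions 111821271 and 111809900 (mm9), and the form with the farther end held 46.2% to 63.6% of the reads. The groups overlapped in that share, with means of 53.0% in aged EE, 50.02% in aged SH, 57.9% in young EE and 55.3% in young SH. The RPM above are of the farther-end form. The nearer-end form had 59.9, 55.7 and 65.1 RPM in aged SH and 54.3, 60.4 and 67.6 RPM in young SH, which overlapped. Ppp2r5e had 15.4, 15.9 and 16.1 RPM in aged EE, 17.4, 18.05 and 19.1 RPM in aged SH, 23.1, 19.1 and 17.9 RPM in young EE, and 15.99, 20.6 and 26.2 RPM in young SH. Aged EE lay below aged SH and below young EE without overlap, at log2 fold changes of -0.20 (SE 0.19) and -0.34 (SE 0.19), and neither passed the threshold.

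Comparison by comparison, 0 of 10 members passed between aged EE and aged SH, where 0.00761% of all genes passed. Libraries did not overlap for 3 members, Ppp2cb being higher and Ppp2r2b and Ppp2r5e lower in aged EE, against 17.1% of all genes. At an unadjusted p under 0.05 there were 2 members with limma, against 8.89% of all genes. With edgeR's quasi-likelihood and likelihood ratio tests and DESeq2 0 members passed, against 0%, 0.122% and 0.911% of all genes. Between young EE and young SH 0 of 10 passed, as did 0% of all genes, and 2 members had an unadjusted p under 0.05, against 9.64% of all genes. The same 3 tests called 0 members there, against 0.0837%, 0.51% and 1.02% of all genes. There 4 members did not overlap, Ppp2r1a, Ppp2r2a and Ppp2r5a being higher and Ppp2r2d lower in young EE, against 12.9% of all genes. Between aged SH and young SH, Ppp2r1a and Ppp2r5c did not overlap, against 25% of all genes. The 3 tests on reads called 0, 1 and 1 members in that comparison, against 2.58%, 7.5% and 8.72% of all genes.

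Between aged EE and young EE 0 of 10 members and 0% of all genes passed with limma, and 1 member had an unadjusted p under 0.05, against 7.92% of all genes. For 4 members the libraries did not overlap there, Ppp2r2d being higher and Ppp2r2b, Ppp2r5a and Ppp2r5e lower in aged EE, against 16.6% of all genes. For the difference between the housing effects 0 of 10 members and 0% of all genes passed, with 3 members at an unadjusted p under 0.05, against 12.1% of all genes. The 3 tests on reads called 0 members in either, against 0%, 0.145% and 0.396% of all genes between aged EE and young EE and 0%, 1.37% and 2.44% for the difference. The median log2 fold change of the 10 was 0.02 in aged EE over aged SH, -0.10 in young EE over young SH, -0.00 in aged SH over young SH and -0.06 in aged EE over young EE, beside 0.02, -0.01, -0.00 and 0.00 over all genes.

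Of 9 other PP2A subunit genes, 2 passed the threshold, both lower in aged SH than in young SH, where 1.72% of all genes were lower past it. Ppp2r1b, the beta scaffold gene, had 1.3, 1.09 and 2.70 RPM in aged SH and 5.58, 3.94 and 10.54 RPM in young SH, where Ppp2r1a was low. The log2 difference was -1.84 (SE 0.47), with an adjusted p = 0.0954 from limma. It supplied 0.263% to 7.59% of the scaffold RPM, with the highest shares in young SH libraries 2 and 3. Ppp2r3c, a regulatory subunit of a further family, had 5.50, 3.27 and 4.57 RPM in aged SH and 21.6, 19.3 and 36.1 RPM in young SH, a log2 difference of -2.45 (SE 0.64), with an adjusted p = 0.0964 from limma. It had 35.2 RPM in young EE library 1 and 3.96 and 6.91 RPM in the other young EE libraries, so that this library lay near young SH for that gene. Both calls were as marginal as that of Ppp2r1a, since with edgeR's quasi-likelihood test Ppp2r1b passed (adjusted p = 0.0983) and Ppp2r3c did not (0.111). Each call was also lost for 9 of 12 libraries left out, and it was kept only without young EE library 1, young EE library 2 or young SH library 2. Over the 8 libraries the study used the adjusted p with limma was 0.662 for Ppp2r1b and 0.642 for Ppp2r3c. With the position score in the fit it was 0.359 and 0.301. No filter or the choroid plexus score also lost both. DESeq2 kept both (adjusted p = 0.012 and 0.00792), as did edgeR's likelihood ratio test (0.0128 and 0.0133). Both had few reads in aged SH, each value below the lowest of any member (15.4 RPM), so counting error weighs more there.

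No gene passed in any comparison among 11 measured genes of PP2A assembly and inhibition, where by p in the aged housing comparison the first was Set, which encodes an inhibitor protein of PP2A. Set differed between aged EE and aged SH by 0.36 on the log2 scale (SE 0.22), with an adjusted p = 0.641 from limma. In the 5 comparisons 0 genes of the list passed with edgeR or DESeq2. With limma 1 of the 11 had an unadjusted p under 0.05, between young EE and young SH, against 9.64% of all genes. This was Set, at 395, 478 and 485 RPM in young EE and 280, 217 and 320 RPM in young SH. Its log2 fold change there was 0.75 (SE 0.22), larger than in the aged groups, with an adjusted p = 0.398 from limma.

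The gene tested whose pattern was most like Ppp2r1a, by Pearson's r of log2 RPM over the 12 libraries and among 13128 genes, was Lypla1 at 0.99. For Ppp2r2a it was Tbc1d9 at 0.97, for Ppp2ca Eny2 at 0.97, for Ppp2r5c Fbxo3 at 0.96 and for Ppp2r2b Ormdl1 at 0.96. These are the highest of many correlations and are given as a description.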

How the data were processed

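The authors aligned SOLiD SAGE tags to NCBI37/mm9, allowing 1 mismatch, and tallied them per RefSeq transcript (29973 rows). The deposited signal of a library is its reads times a single factor, here 0.9397 to 1.0937. Below a signal of 1000, 100% of values in each library were whole reads within 0.1 read at that factor, and these reads were recovered, against at most 34.6% at a factor of 1. The deposited tables also hold fold changes and p-values of the authors' comparisons, which were not used. Of the 12 deposited, 1 was read, since all hold the same library columns.

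Each name was represented by its transcript row with the most reads. The filter was filterByExpr (edgeR 4.0.16, minimum count 10), and 13138 genes remained. Log2 of RPM + 0.2, after TMM scaling, was fitted by limma (3.58.1, R 4.3.3) with a trend, all 12 libraries in a single fit. In each of 5 comparisons p-values (two-sided) were adjusted by Benjamini-Hochberg over all genes tested, with a threshold of 0.1. DESeq2 (1.42.0) and edgeR on recovered reads, other filters, pseudocounts and scalings, marker score covariates and each library left out in turn were alternatives. The fit was tested on simulated data. Reads carry no molecular identifiers, so depth sets only a lower limit on the error.

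The 10 members and the gene lists were chosen with earlier results of these data known. Named were all members, from each other pathway list every gene past the threshold or else the gene with the smallest p between aged EE and aged SH, and the gene most correlated with each of the 5 members with the highest r. The names Ppp2r5b, Ppp4c and Stk25 were added once values were known. The measure of libraries that stand apart, the split by position score and the relations between members were also chosen after the data were seen.

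Replicate numbers were checked for pairing: 5 of 18 same-numbered pairs of libraries had correlated deviations over 0.1, so the numbers were not taken to pair animals. Proteomics, behaviour and enzyme activity were not analysed here.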

Additional observations from a re-analysis of the deposited data

How the results depend on the processing

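Over 28 alternative settings, 55 of 1390 values of single members changed sign, and 3 of these had a size over 0.3 as reported, all for Ppp2cb without young EE replicate 1 (given above, with -0.04 for the difference between the housing effects). Between aged EE and aged SH, where 1 gene passed, 0 passed with the quasi-likelihood test, no filter, the 8 libraries the study used, only the groups compared, a threshold of 0.05 or either marker score as covariate, 16 with the likelihood ratio test and 101 with DESeq2. Between young EE and young SH, where 0 passed, these last tests called 67 and 116 genes, the quasi-likelihood test 11, a pseudocount of 1 RPM 14 and scaling by total count 10. Between aged SH and young SH, where 381 passed, 985 passed with the likelihood ratio test, 1145 with DESeq2, 148 with no filter, 0 over the 8 libraries, 1 at a threshold of 0.05, 0 with the position score and 56 with the choroid plexus score. Between aged EE and young EE, where 0 passed, the counts were 19, 49 and, over the 8 libraries, 1. For the difference between the housing effects, where 0 passed, they were 180 with the likelihood ratio test and 301 with DESeq2. Of the PP2A subunits between aged SH and young SH, where 1 passed, 0 passed with the quasi-likelihood test, no filter, a mean of at least 20 reads, scaling by total count, the 8 libraries, only the groups compared, a threshold of 0.05 or either score.

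With the replicate number as a block, 0 genes passed between aged EE and aged SH, 114 between aged SH and young SH, and 0 PP2A subunits there (Ppp2r1a, adjusted p = 0.122 with limma).

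Leaving out 1 library gave 0 to 5 genes between aged EE and aged SH, 0 to 284 between young EE and young SH (284 without young EE library 1), 0 to 1134 between aged SH and young SH (1134 without young EE library 1, 1108 without young SH library 2, and 0 without library 2 of aged EE, 1 of aged SH, 3 of young EE or 3 of young SH), and 0 to 330 for the difference between the housing effects (330 without young SH library 2). PP2A subunits numbered 0 to 2 between aged SH and young SH and 0 to 1 for that difference, the highest of each without young SH library 2. The share of Ppp2ca in young EE was 19.0% to 39.8%. In each other case the cause was not tested. The fewest reads of a member in a library were 92, so counting error weighs most on Ppp2r5e, the least abundant member.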

Other observations

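Relatives of PP2A were measured in the same libraries. None of 9 measured genes of the PP4 and PP6 phosphatases passed the threshold in any comparison with limma or edgeR's quasi-likelihood test, while 2 passed between aged SH and young SH with its likelihood ratio test and 2 with DESeq2, against 7.5% and 8.72% of all genes. At an unadjusted p under 0.05 with limma there were 2 of these genes between young EE and young SH (9.64% of all genes) and 3 between aged SH and young SH (19.4%). The gene of these with the smallest p between aged EE and aged SH was Ppp4r2, a regulatory subunit of PP4, with 38.3, 53.3 and 56.4 RPM in aged EE and 44.3, 40.9 and 21.8 RPM in aged SH, which overlapped and differed by 0.51 on the log2 scale (SE 0.27), with an adjusted p = 0.594. Ppp4c, the catalytic subunit of PP4, is named after its values were seen. It had 14.3, 9.49 and 10.2 RPM in aged SH and 27.2, 18.05 and 32.9 RPM in young SH, without overlap, a log2 difference of -1.17 (SE 0.33), with an adjusted p = 0.112.

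None of 11 measured partners in STRIPAK, the complex that joins PP2A to kinases through the striatins, passed with limma or the quasi-likelihood test, while the likelihood ratio test and DESeq2 each called 2 between aged SH and young SH, against the 7.5% and 8.72% given, and 1 for the difference between the housing effects, against 1.37% and 2.44% of all genes. At an unadjusted p under 0.05 with limma there were 3 in each comparison with young SH (9.64% of all genes with young EE, 19.4% with aged SH) and 1 in each of the other 3 (8.89% between the aged groups, 7.92% between the EE groups and 12.1% for the difference). Fam40b, a STRIPAK subunit, had 49.4, 35.1 and 94.2 RPM in aged EE and 27.0, 45.0 and 17.3 RPM in aged SH, a log2 difference of 0.98 (SE 0.40), with an adjusted p = 0.529 from limma. Stk25, a STRIPAK kinase also named after its values were seen, had 187, 76.9 and 114 RPM in young SH and 171 to 310 RPM in the other 9 libraries. Its r with Ppp2r1a was 0.96 over the 12 libraries, the second highest of all genes tested.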
